A study of Bos taurus with 16 samples.

Results

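The 31 genes described here are those that the paper placed under the KEGG pathways of the citrate cycle (tricarboxylic acid or TCA cycle, 16 genes) and of fatty acid metabolism (15 genes) among the genes with more expression in the muscle of calves from embryos produced in vitro. They are 31 of the 27607 genes in the deposited table, and 0 genes are shared by the lists. They were chosen by the paper on a combined P-value of expression and DNA methylation in these same muscle libraries, so their direction in muscle is a property of the choice and is given below as a description, without a test. The liver libraries were not used in the choice. The table gives Ensembl gene IDs, and 14 of the 31 could be paired with a symbol from the supplementary tables of the paper, 9 of the TCA cycle and 5 of fatty acid metabolism. The other 17 are called by their IDs. All 31 passed the filter on low counts in both organs.

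RNA was sequenced from the right lobe of the liver and from the semitendinosus muscle of 8 Holstein male calves, 1 library per calf and organ. The 4 IVP calves (3208, 3209, 5833 and 5841) came from oocytes collected by ovum pick-up after mild stimulation of the donor, then matured, fertilized and cultured in serum-free media. The 4 MOET calves (3213, 3217, 3218 and 5932) came from embryos flushed from superovulated and inseminated donors. All embryos were carried by recipient cows. The calves were 98 to 104 days old at sampling, apart from MOET calf 3213 at 144 days. The 4 IVP calves had 1 mother. Calves 5833 and 5841 had another sire than 3208 and 3209, and MOET calves 3217 and 3218 were full siblings of 3208 and 3209, whereas 5932 and 3213 came from another mother and 2 other sires. Embryo origin is therefore partly confounded with the parents.

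The libraries held between 22758137 and 25626474 counts. The authors had adjusted the counts for age, and after that the library of calf 3213 was close to the mean of the other MOET calves. Over the 31 genes its median absolute deviation from that mean was 0.0086 on the log2 scale in muscle and 0.021 in liver, against 0.089 to 0.134 and 0.135 to 0.143 when each of the other MOET calves was compared with the rest. The fits hold all 8 calves of an organ, and their age term rests largely on calf 3213. Means and SDs cover 4 IVP calves and the 3 MOET calves 3217, 3218 and 5932, and levels are in CPM, that is counts scaled to library size within each organ. The lowest count of any of the 31 genes in a library was 19 and the highest 28037. In muscle the lowest count was under 100 for 3 of the genes, and in liver for 1.

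The TCA cycle oxidizes acetyl groups in the mitochondrial matrix and passes the electrons to the respiratory chain. Pyruvate dehydrogenase feeds it with acetyl-CoA from carbohydrate, and beta-oxidation feeds it with acetyl-CoA from fatty acids. In muscle both serve contraction, most of all in slow oxidative fibres. In liver intermediates of the cycle also supply glucose, and acetyl-CoA also supplies ketone bodies. Citrate carried to the cytosol can supply acetyl-CoA for fatty acid synthesis. Peroxisomes shorten very long chains and other fatty acids that mitochondria handle poorly.

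In muscle all 31 genes had a positive log2 fold change (IVP over MOET, edgeR's quasi-likelihood fit with age as covariate). The changes were small and of similar size: they lay between 1.19-fold and 1.75-fold, with a median of 1.36-fold for the TCA cycle genes and 1.43-fold for those of fatty acid metabolism. On the log2 scale the medians were 0.44 and 0.52, and the median of all 12854 genes tested in muscle was 0.018. In 30 of the 31 genes every IVP calf lay above the 3 MOET calves, as did 10.4% of all genes, and the exception was IDH3A. An FDR under 0.05 was reached by 0 of the 31 genes and by 0.467% of all genes in muscle. The choice used this contrast, so nothing is read from these counts.

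**Figure D1:**
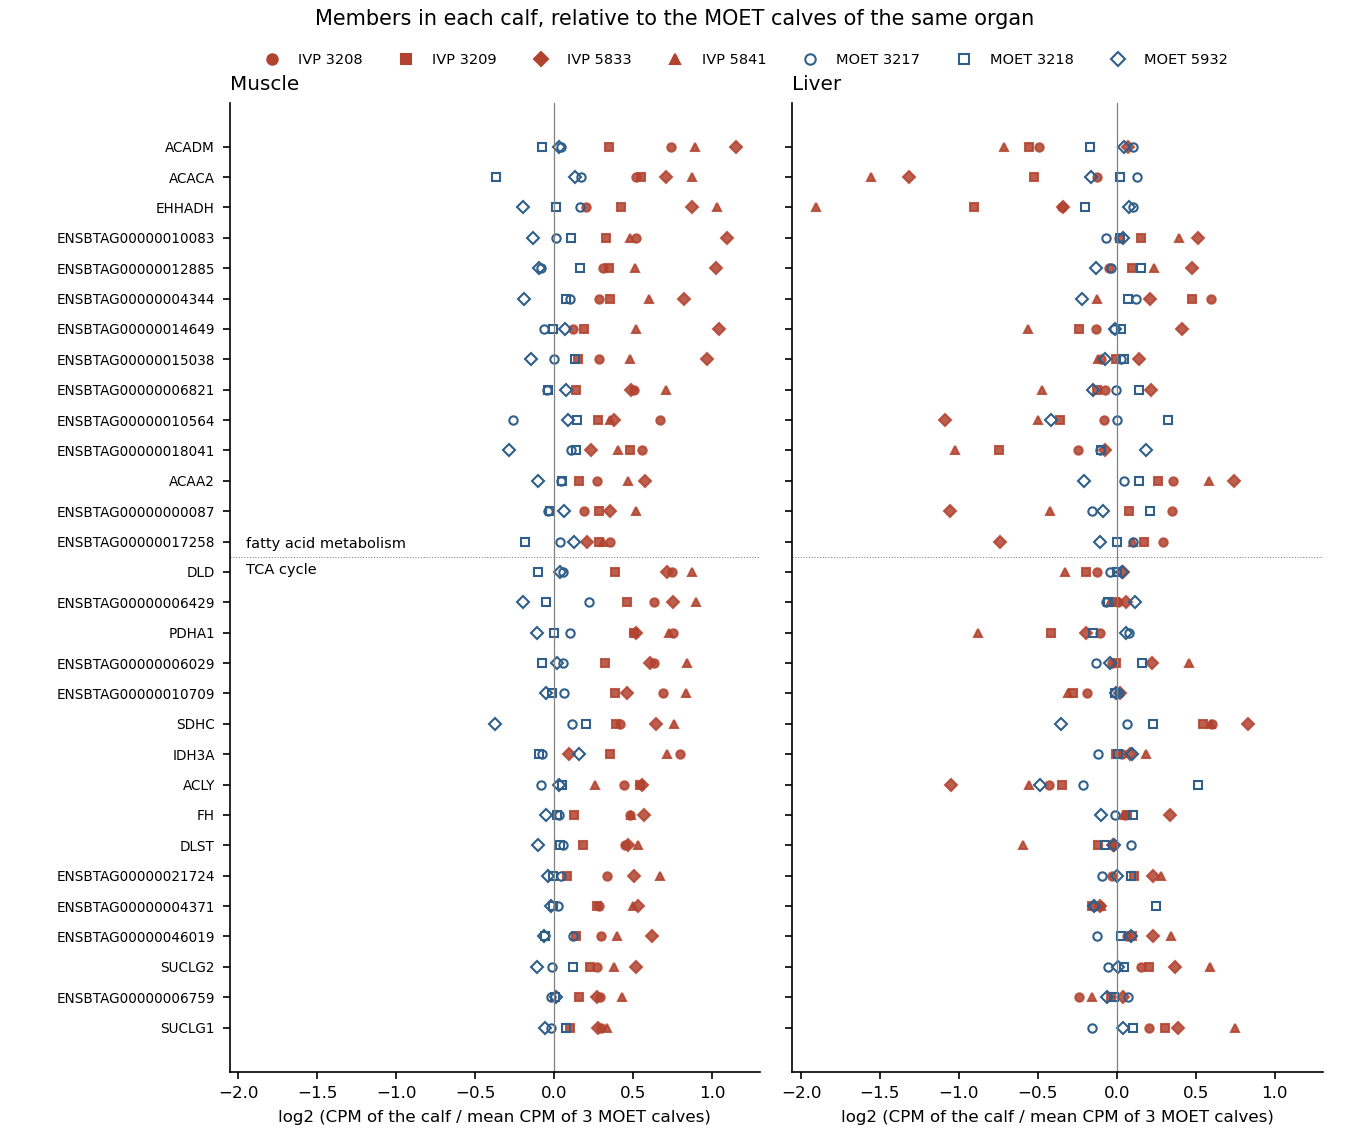
Level of 30 of the 31 genes in each calf, as log2 of its CPM over the mean CPM of MOET calves 3217, 3218 and 5932, in muscle (left) and liver (right). Filled red symbols are IVP calves and open blue symbols MOET calves, 1 symbol per calf, and the dotted line parts fatty acid metabolism (above) from the TCA cycle (below). In muscle the red symbols lie to the right of the blue ones for 29 of the 30, IDH3A being the exception, and in liver they lie on both sides.

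Entry of pyruvate into the cycle was among the steps with the largest values in muscle. DLD (ENSBTAG00000001908), the dihydrolipoamide dehydrogenase shared by the pyruvate and 2-oxoglutarate dehydrogenase complexes, had 158, 123, 154 and 172 CPM in IVP calves 3208, 3209, 5833 and 5841 and 97.8, 87.4 and 96.5 CPM in MOET calves 3217, 3218 and 5932, equal to 0.68 on the log2 scale (standard error, SE, 0.13). PDHA1 (ENSBTAG00000019852), the alpha subunit of the E1 enzyme of pyruvate dehydrogenase, had 224, 189, 191 and 220 CPM in the IVP calves and 142, 133 and 123 CPM in the MOET calves (in the same order of calves, used throughout), with a log2 fold change of 0.62. In both genes calf 3209 was the lowest of the IVP calves and still above every MOET calf. ENSBTAG00000006429 had the most counts of the 31 genes, with 858, 765, 935 and 1033 CPM against 646, 535 and 483 CPM, and its log2 fold change was 0.68.

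Of the enzymes inside the cycle, IDH3A (ENSBTAG00000006227), the catalytic alpha subunit of the NAD-dependent isocitrate dehydrogenase, had 153, 113, 94.4 and 145 CPM in the IVP calves and 83.7, 82.4 and 98.4 CPM in the MOET calves. IVP calf 5833 was here below MOET calf 5932, the only overlap among the 31 genes in muscle. DLST, the E2 subunit of the 2-oxoglutarate dehydrogenase complex, had a log2 fold change of 0.41, SDHC, a membrane anchor of succinate dehydrogenase, 0.55, and FH, the fumarate hydratase, 0.42. ACLY, which cleaves citrate to acetyl-CoA in the cytosol, had a log2 fold change of 0.46 at a low level, where the IVP calves averaged 8.84 ± 0.83 CPM (SD, n = 4) and the MOET calves 6.44 ± 0.32 CPM (SD, n = 3).

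The smallest values of the TCA cycle list were those of succinyl-CoA ligase and of ENSBTAG00000006759. SUCLG1 (ENSBTAG00000006075), the alpha subunit of the ligase, had 253, 220, 249 and 259 CPM in the IVP calves and 203, 216 and 197 CPM in the MOET calves, a log2 fold change of 0.25. The gap between the lowest IVP and the highest MOET calf was small beside the spread within the groups. SUCLG2 (ENSBTAG00000009541), its GTP-specific beta subunit, had 137, 133, 163 and 148 CPM against 113, 124 and 105 CPM (log2 fold change 0.35). ENSBTAG00000006759 had 203, 185, 201 and 224 CPM against 164, 167 and 167 CPM (log2 fold change 0.28). For these genes too, calf 3209 was the lowest of the IVP calves. The remaining 5 genes of the list, ENSBTAG00000004371, ENSBTAG00000021724, ENSBTAG00000046019, ENSBTAG00000006029 and ENSBTAG00000010709, had log2 fold changes of 0.40, 0.40, 0.37, 0.60 and 0.59.

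In the fatty acid list the largest value in muscle was that of ACADM (ENSBTAG00000024240), the medium-chain acyl-CoA dehydrogenase of mitochondrial beta-oxidation. It had 56.2, 42.7, 74.8 and 62.4 CPM in the IVP calves and 34.7, 31.8 and 34.3 CPM in the MOET calves (log2 fold change 0.81, SE 0.17, or 1.75-fold). The MOET calves lay close together, whereas the IVP calves ranged widely, with 5833 the highest. ACAA2 (ENSBTAG00000002863), the mitochondrial 3-ketoacyl-CoA thiolase that ends each round of the same pathway, had 69.3, 63.7, 85.3 and 79.1 CPM against 59.0, 59.3 and 53.4 CPM, and a log2 fold change of 0.37.

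EHHADH of the peroxisome and the enzyme that starts fatty acid synthesis had the same direction in muscle, at levels below 10 CPM. EHHADH (ENSBTAG00000019625), the bifunctional enzyme of peroxisomal beta-oxidation, had 4.50, 5.24, 7.17 and 7.998 CPM in the IVP calves and 4.37, 3.94 and 3.40 CPM in the MOET calves, a log2 fold change of 0.65. ACACA (ENSBTAG00000017567), the acetyl-CoA carboxylase that makes malonyl-CoA, had 4.33, 4.43, 4.95 and 5.57 CPM against 3.42, 2.35 and 3.33 CPM (0.66). Genes of fatty acid breakdown and of fatty acid synthesis were thus both among the 15.

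The other small values of the fatty acid list, beside ACAA2, were those of genes without a symbol. ENSBTAG00000017258 had 15.5, 14.7, 13.9 and 14.96 CPM in the IVP calves and 12.4, 10.6 and 13.2 CPM in the MOET calves, a log2 fold change of 0.29. ENSBTAG00000000087 had 9.44, 10.1, 10.6 and 11.9 CPM against 8.08, 8.14 and 8.68 CPM (0.33). In both the calves of the groups lay close together without overlapping. The remaining 8 were ENSBTAG00000010083, ENSBTAG00000012885, ENSBTAG00000004344, ENSBTAG00000014649 and ENSBTAG00000015038 with log2 fold changes of 0.64, 0.58, 0.53, 0.52 and 0.51, and ENSBTAG00000006821, ENSBTAG00000010564 and ENSBTAG00000018041 with 0.47, 0.43 and 0.42.

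The IVP calves varied more among themselves than the MOET calves did. In muscle the median coefficient of variation of the 31 genes was 12.9% over the 4 IVP and 6.09% over the 3 MOET calves. Over all genes in muscle the medians were 14.9% and 11.2%, so a larger spread in IVP calves was not particular to the 31. The choice used these libraries and can favour genes with little spread within a group, so the spread of the 31 is a description. The mean log2 level of the TCA cycle genes above the MOET mean was 0.49, 0.29, 0.51 and 0.60 in calves 3208, 3209, 5833 and 5841, and that of the fatty acid genes 0.39, 0.33, 0.69 and 0.58. Calf 3209 had the lowest value in either list. It was the lowest IVP calf for 14 of the 16 TCA cycle genes, whereas the fatty acid genes were lowest in 3208 for 7 and in 3209 for 6. The 3 MOET calves lay between -0.058 and 0.042 in both lists. Between the full siblings alone (3208 and 3209 against 3217 and 3218) the median log2 fold changes were 0.28 and 0.36, and all 31 genes were higher in the IVP calves. The libraries of these siblings were part of the choice, so this direction is a description.

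The levels of fibre type markers in muscle were compared beside those of these genes, and an FDR under 0.05 was reached by 0 of the markers (edgeR), which had FDRs from 0.085 for MYH7 upwards. Before adjustment p was under 0.05 for 3 of 3 slow and 2 of 6 fast fibre markers tested. The share of all muscle genes with such a p was not counted, so these numbers have no background beside them. Markers were paired through genes that the paper had selected partly on these libraries. A marker that differs between the groups is thus more easily paired, and nothing is read from these counts or from their common direction. Only 3 of the 10 listed markers of slow fibres could be paired with an ID, and all 3 had a positive log2 fold change: 1.65 for MYH7, the slow myosin heavy chain, 1.499 for ATP2A2, the slow calcium pump, and 0.99 for CASQ2. MYH7 had 5682, 4998, 14722 and 9139 CPM in the IVP calves and 3884, 2442 and 1862 CPM in the MOET calves, so the calves 5833 and 5841, which had the highest means of both gene lists, also had the most MYH7. The summed level of the 3 markers was 6031 to 17431 CPM in IVP and 2295 to 4721 CPM in MOET calves, without overlap. Of the 6 fast fibre markers paired of 14, MYH2 (0.79) and MYH4 (0.43) were higher and MYLPF (-0.46), TNNT3 (-0.37), TNNC2 (-0.60) and MYOZ1 (-0.28) lower, and their sum was 40751 to 62284 CPM in IVP and 59700 to 62930 CPM in MOET calves.

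Of the markers of other cell types 0 reached an FDR under 0.05 in muscle (edgeR), the lowest being 0.069 for COL1A1, and before adjustment p was under 0.05 for 2 of 3 endothelial, 4 of 4 fibroblast, 0 of 3 macrophage and 1 of 2 hepatocyte markers tested. Endothelial markers, 3 of 8 paired, summed to 126 to 207 CPM in IVP and to 110 to 116 CPM in MOET muscle. Fibroblast markers, 4 of 7 paired, summed to 808 to 1153 CPM in IVP and to 1295 to 1624 CPM in MOET muscle, and macrophage markers, 3 of 7 paired, to 15.8 to 43.1 and 22.5 to 30.3 CPM. Of the hepatocyte markers, 4 of 12 paired, APOB and CYP7A1 were at 0 in every muscle library, and the sum of all 4 was 3.17 to 36.8 CPM in IVP and 0.972 to 2.47 CPM in MOET muscle, highest in calf 3209. These markers too were paired through genes selected partly on these libraries, and their unadjusted counts in muscle also lack a share of all genes. The counts are therefore a description. In bulk tissue a different share of fibres or cells and a different level per cell cannot be told apart. The part of fibre type and cell composition in the muscle values of the 31 genes was not tested.

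**Figure D2:**
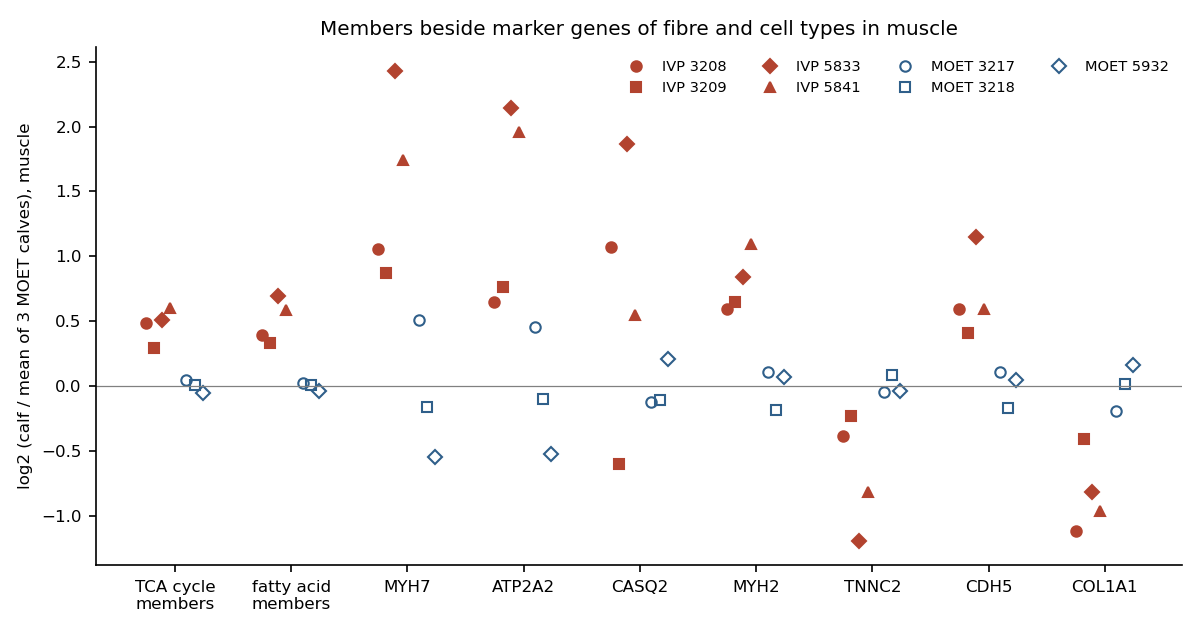
Muscle level of each calf as log2 over the mean of MOET calves 3217, 3218 and 5932, for the mean of the 16 TCA cycle genes, the mean of the 15 fatty acid genes and 7 marker genes of slow fibres (MYH7, ATP2A2, CASQ2), fast fibres (MYH2, TNNC2), endothelium (CDH5) and fibroblasts (COL1A1). The means of the gene lists lie between 0.29 and 0.69 in the IVP calves, and MYH7 lies further from the MOET calves, most of all in calf 5833.

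The liver libraries, which did not enter the choice, answer whether embryo origin went with the same genes in another organ of the same calves. Their values in liver had no common direction. An FDR under 0.05 was reached by 0 of the 31 genes (edgeR's quasi-likelihood test with age as covariate), where 0.035% of all 14290 genes tested in liver reached it. The lowest FDR was 0.125. Before adjustment, p was under 0.05 for 7 of the 31 genes, 22.6%, against 29.8% of all genes, among them SDHC, SUCLG1, SUCLG2 and ACAA2, higher, and ACACA and ACLY, lower in IVP calves. DESeq2 with age called 3 of the 31, and edgeR called 1 without calf 3208, 2 without 5841 and 3 without 3213. Of all liver genes these settings called 11.1%, 0.699%, 8.41% and 15.2%, in that order. With calf 3213 and the age term both left out, edgeR called 0 of the 31 genes and 0.0347% of all liver genes. Within the TCA cycle list 9 genes were higher and 7 lower in IVP liver (median log2 fold change 0.039), and of the 15 fatty acid genes 5 were higher and 10 lower (median -0.081), beside a median of -0.0040 over all genes.

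**Figure D3:**
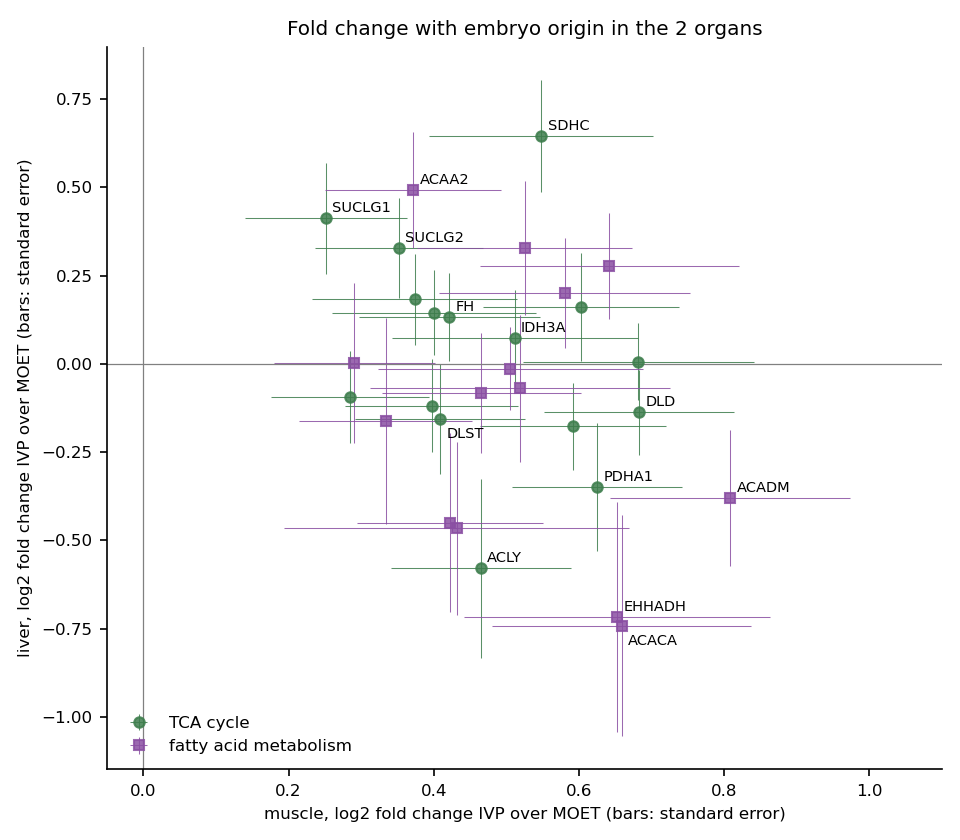
Log2 fold change (IVP over MOET) of 30 of the 31 genes in muscle (horizontal axis) and liver (vertical axis), with bars for the standard error of each fit, circles for the TCA cycle and squares for fatty acid metabolism. The choice of the genes sets the muscle values above 0, whereas the liver values shown spread from -0.74 for ACACA to 0.65 for SDHC.

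Within the TCA cycle list the succinate steps had the largest positive values in liver. SDHC (ENSBTAG00000015853) had 98.4, 94.9, 115 and 97.9 CPM in IVP livers and 67.7, 76.0 and 50.8 CPM in MOET livers (log2 fold change 0.65, SE 0.16, edgeR FDR 0.125). Every IVP calf was above every MOET calf. SUCLG1 had 107, 115, 121 and 156 CPM against 83.2, 99.7 and 95.0 CPM (log2 fold change 0.41, SE 0.16, edgeR FDR 0.138), and again no calf overlapped. SUCLG2 followed with 0.33, where IVP livers averaged 283 ± 40.1 CPM (SD, n = 4) and MOET livers 224 ± 7.48 CPM (SD, n = 3). These 3 genes, 18.75% of the TCA cycle list, were its only ones in which the liver groups did not overlap. In each the IVP calves were higher, and 16.3% of all liver genes had the IVP calves above in this way. Over the 31 genes, 4 had every IVP calf above and 2 every IVP calf below the MOET calves. Among all liver genes the shares were 16.3% and 16.7%.

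The gene whose value was largest among the fatty acid genes in liver was ACAA2, with 595, 557, 776 and 695 CPM in the IVP calves and 479, 511 and 402 CPM in the MOET calves. The groups did not overlap (log2 fold change 0.49, SE 0.16, edgeR FDR 0.127). The next were 3 genes without a symbol, ENSBTAG00000004344 with a log2 fold change of 0.33, ENSBTAG00000010083 with 0.28 and ENSBTAG00000012885 with 0.20, in all of which calves of the groups overlapped.

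EHHADH of the peroxisome lay on the other side in liver. It had 161, 109, 161 and 54.5 CPM in the IVP calves and 219, 177 and 215 CPM in the MOET calves (log2 fold change -0.72, SE 0.33, edgeR FDR 0.175). Here calf 5841 was far below the other IVP calves, and all 4 were below the MOET calves, as in 16.7% of all liver genes. In muscle every IVP calf was above the MOET calves.

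ACACA also had a negative value in liver, with more spread. It had 25.3, 19.3, 11.1 and 9.39 CPM in the IVP calves and 30.3, 28.0 and 24.7 CPM in the MOET calves (log2 fold change -0.74, SE 0.31, edgeR FDR 0.156). Calf 3208 reached into the range of the MOET calves and 5841 was the lowest. ACLY, which supplies cytosolic acetyl-CoA for fatty acid synthesis, averaged 39.1 ± 7.74 CPM (SD, n = 4) in IVP livers, against MOET livers (log2 fold change -0.58), which averaged 58.1 ± 21.8 CPM (SD, n = 3) with calf 3218 at 82.8 CPM. ACADM, the gene with the largest value in muscle, had -0.38 in liver on the log2 scale and overlapping groups.

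**Figure D4:**
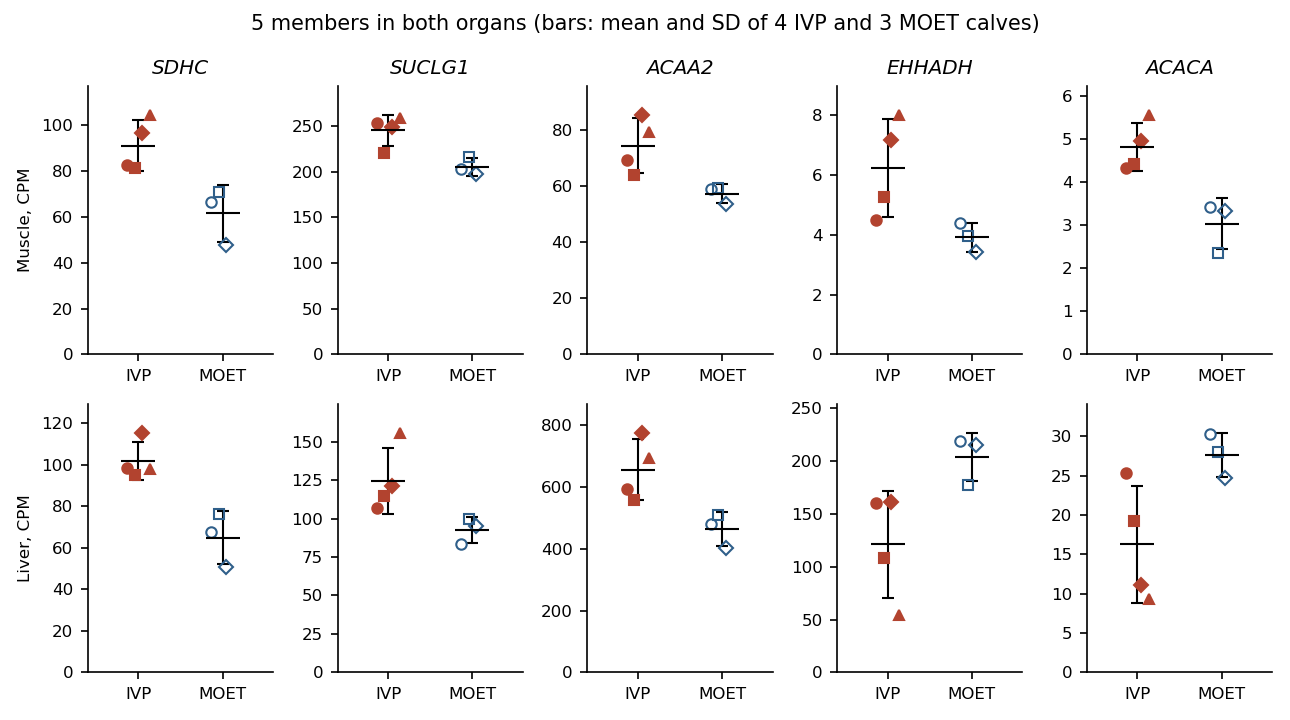
CPM of 5 genes in muscle (upper row) and liver (lower row), with 1 symbol per calf (IVP circle 3208, square 3209, diamond 5833, triangle 5841; MOET circle 3217, square 3218, diamond 5932) and bars for the mean and SD. SDHC, SUCLG1 and ACAA2 are higher in IVP calves in both organs, whereas EHHADH is higher in IVP muscle and lower in IVP liver without overlap, and ACACA is lower in IVP liver with calf 3208 among the MOET calves.

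The other genes of the lists had liver values between -0.47 and 0.18. In the TCA cycle list these were PDHA1 (-0.35), DLST (-0.16), DLD (-0.14), FH (0.13) and IDH3A (0.07), and the genes without a symbol ENSBTAG00000046019 (0.18), ENSBTAG00000006029 (0.16), ENSBTAG00000021724 (0.15), ENSBTAG00000006429 (0.01), ENSBTAG00000006759 (-0.09), ENSBTAG00000004371 (-0.12) and ENSBTAG00000010709 (-0.18). In the fatty acid list they were ENSBTAG00000017258 (0.00), ENSBTAG00000015038 (-0.01), ENSBTAG00000014649 (-0.07), ENSBTAG00000006821 (-0.08), ENSBTAG00000000087 (-0.16), ENSBTAG00000018041 (-0.45) and ENSBTAG00000010564 (-0.47). The unadjusted p of each was above 0.05, which does not show that the groups are alike: the standard errors lay between 0.11 and 0.29. PDHA1 and DLD, with some of the largest values of the TCA cycle list in muscle, thus had negative ones in liver.

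Of the 15 fatty acid genes, 11 are also in the KEGG pathway of fatty acid degradation by the paper's tables. In liver 5 of these 11 were higher and 6 lower in IVP calves (median log2 fold change -0.013), and in muscle, where the choice set the direction, the median was 0.53. All 5 fatty acid genes with a positive value in liver belong to these 11. The summed level of the 16 TCA cycle genes in liver was 1409, 1416, 1557 and 1586 CPM in the IVP calves and 1289, 1410 and 1343 CPM in the MOET calves, so that 3208 fell just below MOET calf 3218. That of the 15 fatty acid genes was 2584, 2426, 2887 and 2314 CPM in the IVP calves and 2512, 2507 and 2302 CPM in the MOET calves, which overlapped, and the mean of the IVP calves was the higher. The mean log2 level above the MOET mean, which weights each gene equally, was 0.021 ± 0.050 (SD, n = 4) for the TCA cycle and -0.24 ± 0.19 (SD, n = 4) for the fatty acid genes, opposite in direction to their summed level, and within the MOET calves its SDs were 0.073 and 0.059. The lowest value of the fatty acid genes was that of calf 5841, -0.50, which was also the lowest IVP calf for 9 of the 15.

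In liver too an FDR under 0.05 was reached by 0 of the markers of cell types (edgeR). Before adjustment p was under 0.05 for 3 of 3 macrophage, 3 of 4 fibroblast, 4 of 4 hepatocyte and 2 of 3 endothelial markers. The same held for 1 of 1 cholangiocyte and 0 of 1 T and B cell markers. Over all liver genes that share was 29.8%. The pairing relied on genes selected partly on these libraries, so nothing is read from the marker counts. Macrophage markers (CSF1R, C1QA and C1QB, 3 of 7 paired) summed to 1136 to 2018 CPM in IVP and 846 to 1058 CPM in MOET liver. Fibroblast markers, 4 of 7 paired, summed to 499 to 660 CPM in IVP and 794 to 843 CPM in MOET liver. The 4 paired hepatocyte markers had values in both directions, APOA1 (1.66) and TTR (0.61) higher and APOB (-0.67) and CYP7A1 (-2.33) lower on the log2 scale. The slow myosin MYH7 and the fast myosin MYH2 were at 0 in the liver of the 7 calves. The part of cell composition in the liver values was not tested.

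The other genes of the KEGG pathways that could be paired with an ID were few, 3 of the TCA cycle and 6 of fatty acid metabolism, since only 12 of 30 and 11 of 58 listed genes could be named. They were paired through genes that the paper had selected partly on these libraries, so the counts of directions are a description. An FDR under 0.05 in liver was reached by 0 of the 9 (edgeR). In liver 7 of the 9 were higher and 2 lower. The largest values were those of HSD17B8 (0.66), ELOVL5, an elongase of polyunsaturated fatty acids (-0.60), CPT1C (0.54), IDH3G, the gamma subunit of the isocitrate dehydrogenase (0.52), ACAA1, the peroxisomal thiolase (0.52), and SCP2 (-0.34). In muscle 7 were higher and 2 lower with a median of 0.096, and the largest were PCK1 (-0.75, at 0.94 CPM in IVP calves), CPT1C (0.57), SDHD (0.31), ECHS1 (0.21), SCP2 (0.12) and IDH3G (0.10). IDH3G thus had a value near 0 in muscle, where IDH3A of the same enzyme had 0.51, and a larger one in liver, where IDH3A had 0.07. That difference between the subunits was not tested.

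The levels of the genes in the organs themselves were not part of the choice, although a gene with more counts in muscle is more easily selected there, and the part of this was not tested. In 1 fit over the 16 libraries, 14 of the 16 genes of the TCA cycle had more expression in muscle at an FDR under 0.05 (edgeR) and 2 had more in liver, and of the 15 fatty acid genes 1 was higher in muscle and 12 in liver. Among all genes 39.9% were called higher in muscle and 44.7% higher in liver. The median log2 fold change, muscle over liver, was 2.30 for the TCA cycle and -1.77 for fatty acid metabolism, beside -0.091 over all genes. In 26 of the 31 genes the calves of the organs did not overlap on the joint scale, as in 58.6% of all genes. These values depend on the joint scaling of unlike organs: with library size alone, a setting added once the values had been seen, the median of all genes shifted by -0.68, the TCA cycle counts became 12 and 2 and those of fatty acid metabolism 1 and 14.

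**Figure D5:**
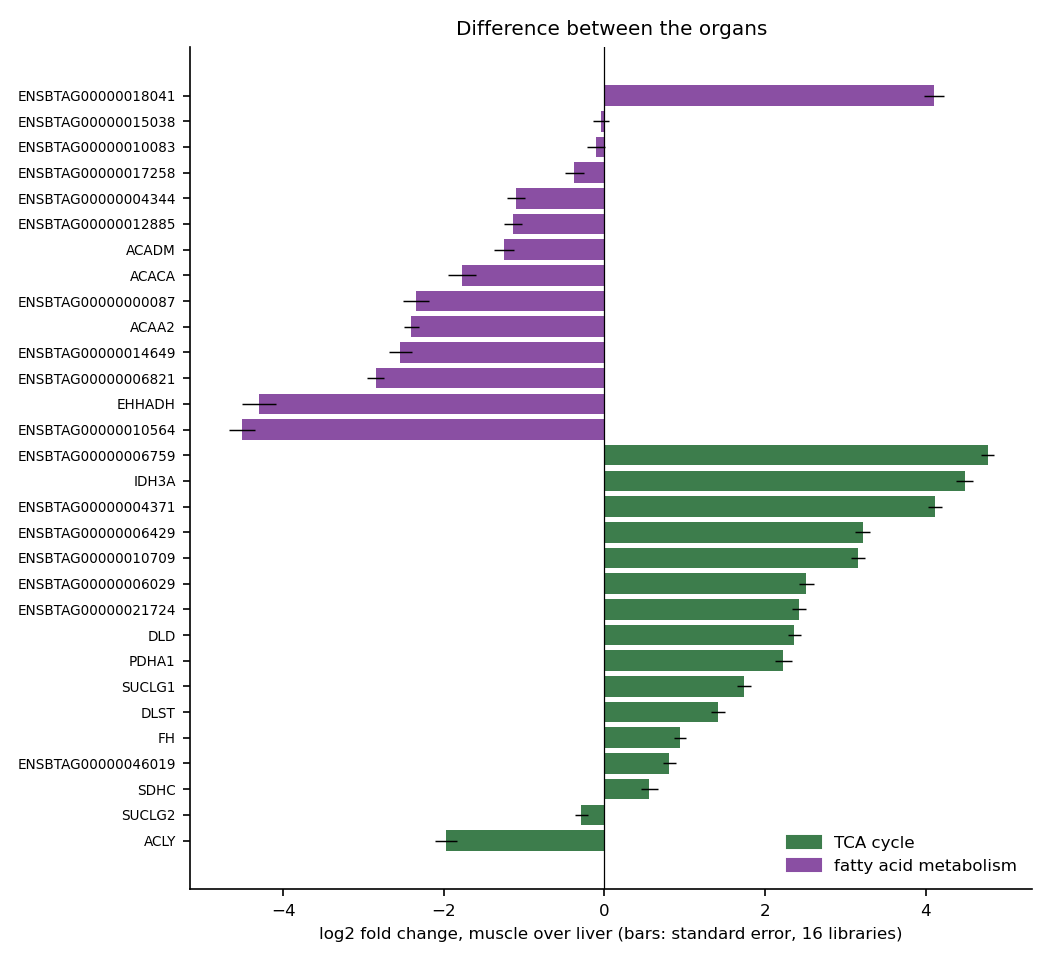
Log2 fold change of 30 of the 31 genes, muscle over liver, in 1 fit over 16 libraries with bars for the standard error. Values above 0 are higher in muscle, and the TCA cycle genes lie there except for SUCLG2 and ACLY, whereas the fatty acid genes lie below 0 except for ENSBTAG00000018041.

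The largest ratios in favour of muscle were in the TCA cycle list. On the joint scale, ENSBTAG00000006759 had 258, 236, 248, 279, 209.5, 216 and 210.3 CPM in the muscle of calves 3208, 3209, 5833, 5841, 3217, 3218 and 5932 and 7.47, 8.601, 9.08, 7.92, 9.24, 8.69 and 8.37 CPM in their liver, 27.3-fold higher in muscle (log2 fold change 4.77, SE 0.077, edgeR FDR 5.27e-18). IDH3A had 194, 144, 117, 181, 107, 106 and 124 CPM in muscle and 5.95, 5.81, 6.16, 6.63, 5.34, 5.83 and 6.16 CPM in liver, 22.4-fold higher. ENSBTAG00000004371 had 407, 405, 469.7, 464, 342, 339 and 326 CPM in muscle and 21.4, 20.7, 21.4, 21.5, 20.7, 27.2 and 20.6 CPM in liver, 17.4-fold higher. In all 3 the organs lay far apart in every calf. The single fatty acid gene with more counts in muscle, ENSBTAG00000018041, reached 28.2 to 51.1 CPM there and 1.37 to 3.11 CPM in liver, 17.2-fold.

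Other genes of the cycle were higher in muscle by less. DLD was 5.16-fold, PDHA1 4.69-fold, SUCLG1 3.35-fold, DLST 2.66-fold and FH 1.93-fold higher. The genes ENSBTAG00000006429, ENSBTAG00000010709, ENSBTAG00000006029, ENSBTAG00000021724 and ENSBTAG00000046019 were 9.31-fold, 8.93-fold, 5.72-fold, 5.35-fold and 1.75-fold higher. SDHC was 1.48-fold higher in muscle (log2 fold change 0.56, FDR 8.98e-05 from edgeR), but with library size alone its log2 fold change was -0.12. ACLY was the clearest exception, 3.92-fold higher in liver.

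The largest ratios in favour of liver were in the fatty acid list. ENSBTAG00000010564 had 36.0, 29.6, 17.8, 26.9, 37.7, 47.2 and 28.1 CPM in liver and 1.92, 1.46, 1.53, 1.52, 1.01, 1.35 and 1.27 CPM in muscle, with the calves in the same order, 22.84-fold higher in liver. EHHADH had 127, 86.3, 128, 43.3, 173, 139.9 and 168 CPM in liver and 5.70, 6.67, 8.86, 9.96, 5.58, 5.09 and 4.27 CPM in muscle, 19.7-fold. Calf 5841 had the lowest liver and the highest muscle level of EHHADH. The mitochondrial enzymes differed less, ACAA2 5.28-fold and ACADM 2.37-fold higher in liver, and ACACA of fatty acid synthesis 3.42-fold. ENSBTAG00000006821, ENSBTAG00000014649, ENSBTAG00000000087, ENSBTAG00000012885, ENSBTAG00000004344 and ENSBTAG00000017258 were 7.19-fold, 5.83-fold, 5.08-fold, 2.20-fold, 2.15-fold and 1.29-fold higher in liver. ENSBTAG00000010083 (log2 fold change -0.10, SE 0.11, edgeR FDR 0.374) and ENSBTAG00000015038 (-0.04, SE 0.10, edgeR FDR 0.721) did not pass the test, and their calves overlapped between the organs.

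The subunits of succinyl-CoA ligase went apart between the organs. SUCLG1 was higher in muscle and SUCLG2 higher in liver by 1.22-fold (log2 fold change -0.29, FDR 0.00295 from edgeR). The ratio of their counts within a library does not depend on the scaling. In liver it was 2.33, 2.25, 2.39 and 2.17 for IVP and 2.59, 2.31 and 2.37 for MOET calves. In muscle it was 0.54, 0.60, 0.66 and 0.57 for IVP and 0.55, 0.57 and 0.54 for MOET calves. Liver and muscle did not overlap, and the ratio was 4.07-fold higher in liver (2.02 ± 0.14 on the log2 scale, SD, n = 7, higher in 7 of 7 calves). The size of the ratio itself reflects transcript lengths as well, so only its change between organs is given. The pair was chosen after the values were seen, so no test is given.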

How the data were processed

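The 16 libraries of polyadenylated RNA were not stranded, so overlapping genes can share counts. Per the labels and the paper, the authors used SOAPnuke for read filtering, STAR 2.7 for alignment to bosTau9 and HTSeq for gene counts, and controlled for age with sva. The deposited values are therefore estimated counts (whole numbers, and rounding changed none), although raw counts had been assumed in the design. There were 0 other columns of values. The members and lists were chosen with earlier results of these data known, and symbols came from the paper's tables of genes selected partly on these libraries (4180 IDs).

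In each organ, genes were kept with filterByExpr (minimum count 10, minimum total 15), scaled by TMM and fitted with edgeR 4.0.16 (quasi-likelihood, age in days as covariate, Benjamini-Hochberg adjustment over all genes tested, FDR threshold 0.05). The organs were compared in 1 fit over 16 libraries. Counts per library limit the precision as given above, and p-values measure the spread between calves. DESeq2 1.42.0 was an alternative. R 4.3.3, Python 3.11.15 and matplotlib 3.10.9 were used, and the fits were tested on simulated data. The organs are paired by calf: the correlation of a calf's deviations in liver and muscle lay between -0.13 and 0.28 and was above 0.1 in 5 of 8 calves.

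Of the 31 members 1 is not reported here by itself, though counts and medians include it, and the other 30 are named. Values in every calf are given for the 3 largest and 3 smallest muscle changes of each list, the 3 largest rises and falls in liver and the 3 highest and lowest organ ratios. Genes outside them come from fixed lists: those called in liver, and up to 6 of each KEGG list with the largest change in each organ. Others were chosen after their values were seen. Of those lists 0 genes were called in liver. The methylation data and the adipocyte, erythroid and mitochondrially encoded lists, with 0 paired IDs, were not used here.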

Additional observations from a re-analysis of the deposited data

Results flagged for a closer look

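EHHADH went opposite ways in the 2 organs: every IVP calf lay above MOET calves 3217, 3218 and 5932 in muscle and below them in liver. The log2 fold change was larger in muscle than in liver by 1.37. This difference between the organs was not tested, and the muscle direction was fixed by the choice of the gene. FH stood out because 1 IVP calf lay far from the others in liver: calf 5833 had 125 CPM, and the other 3 IVP calves had 102, 103 and 102 CPM. It was 1 of 62 groups of 4 IVP calves examined, and chance gives about 1 in 20.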

How the results depend on the processing

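The number of the 31 genes called in liver, 0, became 4 without the age term, 3 with DESeq2 and age and 6 with DESeq2 without age. With calf 3213 and the age term both left out it was 0, and 5 of all 14416 genes tested were called. Leaving out 1 calf at a time with the age term kept, the number of the 31 lay between 0 and 3, with 1 without 3208, 2 without 5841 and 3 without 3213. Among the genes so called were SDHC, SUCLG1, SUCLG2, ACAA2, EHHADH and ACACA, in 5, 2, 1, 3, 1 and 1 of 17 alternatives. All genes called in liver rose likewise, from 5 to 2998 (20.98%) without the age term, to 1588 (11.1%) with DESeq2 and age and to 4657 (32.6%) with DESeq2 without age. Without the age term the library of calf 3213, close to the mean of the other MOET calves after adjustment, counts as a further calf. It adds little spread of its own, so the calls of the fits without age are not read as results. With library size alone the liver median of all genes shifted from -0.0040 to -0.16, and that of the TCA cycle genes was -0.12, above it as in the TMM fit. Between full siblings their muscle median was 0.28. The number of genes higher in IVP muscle was 31 in each of its alternatives. These use the muscle libraries on which the genes were chosen, so nothing is read from this number. Between the organs, SDHC turned to -0.12 with library size alone. With a block for each calf (pairing), the fit gave 15 genes higher in muscle and 14 higher in liver, as without it, and changed no other call. Small liver values without a call changed sign with library size alone, by that shift of all genes, for ENSBTAG00000021724 (-0.0143), FH (-0.0192), IDH3A (-0.0884), ENSBTAG00000006029 (-0.000472), ENSBTAG00000006429 (-0.15) and ENSBTAG00000017258 (-0.15), among full siblings for ENSBTAG00000006029 (-0.0407), ENSBTAG00000012885 (-0.0374) and ENSBTAG00000000087 (0.18), without the age term for ENSBTAG00000006429 (-0.00382), and among calves of 1 mother for ENSBTAG00000017258 (-0.0468). With 1 calf left out at a time, liver values ranged from -0.19 to 0.0316 for ENSBTAG00000004371, from -0.0247 to 0.0614 for ENSBTAG00000006429, from -0.29 to 0.0455 for ENSBTAG00000014649, from -0.20 to 0.0152 for ENSBTAG00000006821, from -0.39 to 0.0534 for ENSBTAG00000000087, from -0.0694 to 0.0177 for ENSBTAG00000015038 and from -0.11 to 0.20 for ENSBTAG00000017258, and the organ difference of ENSBTAG00000015038 from -0.10 to 0.0104. The cause of the other changes was not tested. Depth limits ENSBTAG00000010564 in muscle, with 19 to 37 counts.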

Other observations

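Regulators of mitochondrial biogenesis, which the lists above do not hold, had mostly opposite signs in the organs. Of 7 paired genes of 18 listed, 6 were lower in IVP liver (median log2 fold change -0.51) and 6 higher in IVP muscle (median 0.24). Over all genes tested, 49.7% had a log2 fold change above 0 in liver and 52.3% in muscle. PPARA, a transcription factor that drives fatty acid oxidation genes, had 23.1, 14.9, 14.3 and 13.6 CPM in IVP livers and 36.9, 23.9 and 38.5 CPM in MOET livers, a log2 fold change of -0.99. Its muscle values were 11.4, 11.1, 11.3 and 16.1 CPM against 9.04, 7.26 and 7.59 CPM (0.63). TFAM, which packages and transcribes mitochondrial DNA, had log2 fold changes of -0.97 in liver and 0.41 in muscle, and in either organ the groups did not overlap. Every IVP calf was likewise below the MOET calves in 16.7% of all liver genes, and above them in 10.4% of all muscle genes. PPARGC1A had 0.43 in liver and 0.48 in muscle with overlapping groups. Their FDR was above 0.05 in both organs (edgeR), and the genes were named after their values were seen. Which regulators could be paired also depended on genes selected partly on these libraries.

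Enzymes and regulators around the cycle, 8 paired of 22 listed, were also described after their values were seen. In muscle 6 of the 8 were higher in IVP calves, SLC25A1 by only 0.02 on the log2 scale. The 2 lower ones were SDHAF3 (-0.40) and ME1 (-0.01). An FDR under 0.05 in muscle was reached by 2 of the 8, GOT1 and PDPR (edgeR), beside 0.467% of all genes, and in liver by 0. Which of the 22 could be paired depended on genes that the paper had selected partly on these libraries. A gene that differs between the groups is thus more easily paired, and nothing is read from these counts. GOT1, the cytosolic aspartate aminotransferase, had 184, 142, 165 and 248 CPM in the muscle of IVP calves and 99.2, 91.2 and 92.6 CPM in that of MOET calves. Its log2 fold change was 0.95 in muscle (edgeR FDR 0.0485) and 0.72 in liver (edgeR FDR 0.125). PDPR, the regulatory subunit of pyruvate dehydrogenase phosphatase, had log2 fold changes of 1.03 in muscle (edgeR FDR 0.0428) and -1.15 in liver (edgeR FDR 0.13), where calves of the groups overlapped.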
